A study of Mus musculus with 9 samples.

Results

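NR4A, EGR and KLF early-response factors are described here in CD103+ dendritic cells of the mouse lung, before and after a period in culture. The members were the rows of the deposited table whose symbol is Nr4a1, Nr4a2, Nr4a3, Egr1, Egr2, Egr3, Klf2, Klf4, Klf6 or Ier2. Each symbol matched 1 row, which gives 10 members among 45535 rows that carry a gene symbol. Dendritic cells present antigen to T cells, and CD103 is an integrin (gene Itgae) found on most type 1 conventional dendritic cells (cDC1) of the lung. All mice carried the genotype label C57/BL6j and had received bleomycin, which injures the lung and is used to model fibrosis, for 7 days. The lungs were dispersed with collagenase, and cells were selected for CD103 on magnetic beads. The 5 before-culture samples gave RNA directly after selection, and the 4 after-culture samples were first kept for 18 h in RPMI to which fetal bovine serum and antibiotics had been added. Both groups were thus digested, bead-selected and bleomycin-treated, and no sample of untreated lung is used here. The time since digestion and selection differed along with culture, so the parts of culture and of that time cannot be told apart. The labels do not give the age or sex of the mice, or whether a sample came from 1 mouse or from a pool. The p-values therefore measure the spread between these samples, which may be technical.

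Early-response genes are transcribed within minutes of a stimulus from factors already present in the cell, without new protein synthesis, and their short-lived mRNAs decay when the stimulus ends. NR4A proteins are orphan nuclear receptors whose activity depends largely on how much of them is made. EGR proteins are zinc finger activators induced through the MAP kinase pathway and serum response factor. KLF proteins are zinc finger factors that bind GC-rich and CACCC sequences, and they act in endothelial cells, lymphocytes and myeloid cells as regulators of quiescence, migration and differentiation.

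Values are the authors' normalized read counts (gene counts divided by 1 factor per sample), which are not corrected for gene length. Whole reads could be recovered from them, and depth in named rows was 14.7 M to 35.3 M reads per sample. All 10 members had a mean of at least 10, the minimum for testing, and they held from 99 to 52233 reads in a sample. Tests used limma on log2(value + 1) over all 18202 genes above that minimum, with Benjamini-Hochberg adjustment over all of them and a threshold of 0.05. Culture was accompanied by widespread differences, with 68.8% of all tested genes past the threshold, 34.6% lower and 34.2% higher. A count model (edgeR) on the recovered reads called 12562 genes, or 69.0%. The 11 cDC1 marker genes were read in both groups. Of these, 8 were lower and 3 (Batf3, Zbtb46 and Flt3) higher after culture, with log2 fold changes from −5.70 for Xcr1 to 0.67 for Flt3. Their summed count ran from 143423 to 172698 before and from 32451 to 36273 after. A large part of the sum before culture was 1 gene, Wdfy4, with a mean of 75717 before and 4761 after. Bulk RNA cannot tell fewer cells of a type apart from less RNA per cell.

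After culture 9 of the 10 members were lower at an adjusted p under 0.05 in limma, and none was higher. No member had a positive log2 fold change in limma or under any alternative, edgeR and DESeq2 included. Among all tested genes 34.6% were called lower. For 8 of the 10 members every after-culture value lay below every before-culture value, which held for 28.6% of tested genes. The fall was 8-fold or more for 5 members (Nr4a1, Egr3, Klf4, Egr1 and Ier2), against 3.54% of tested genes. The median log2 fold change of the members was −3.10, beside 0.0065 over all tested genes. The members were chosen with earlier results of these data known, so these comparisons with all genes are descriptive only. The members did not move alike. Log2 fold changes ran from −6.55 for Nr4a1 to −0.19 for Klf6, and each family held a member that fell far and another that moved much less.

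**Figure D1:**
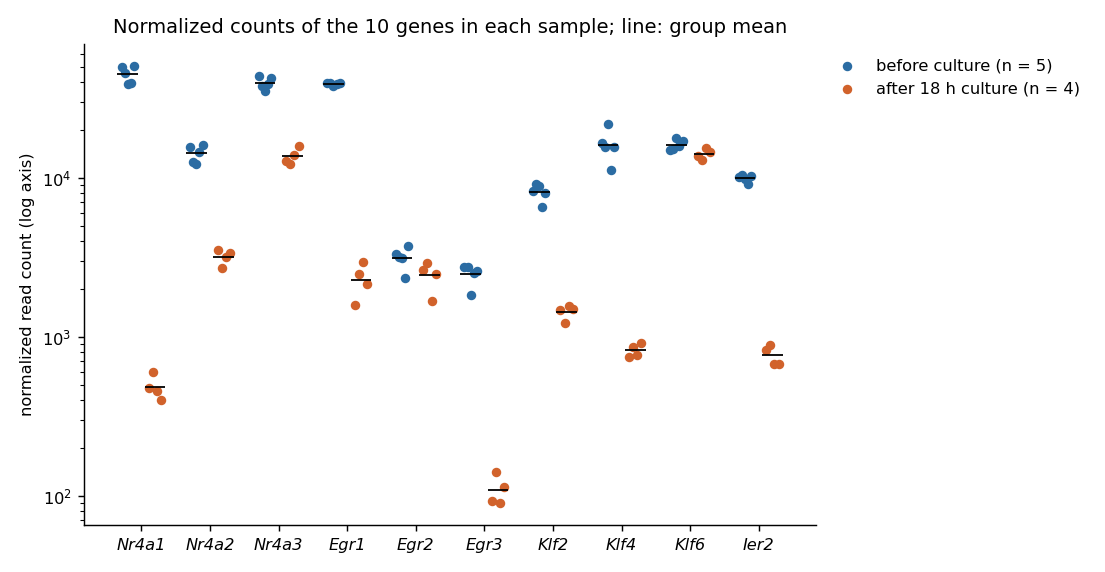
Normalized read count on a log axis for each of the 10 members, with 1 point per sample, blue before culture (n = 5) and orange after culture (n = 4), and a line at the group mean. The groups overlap for Egr2 and Klf6 and are separate for the other 8 members.

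**Figure D2:**
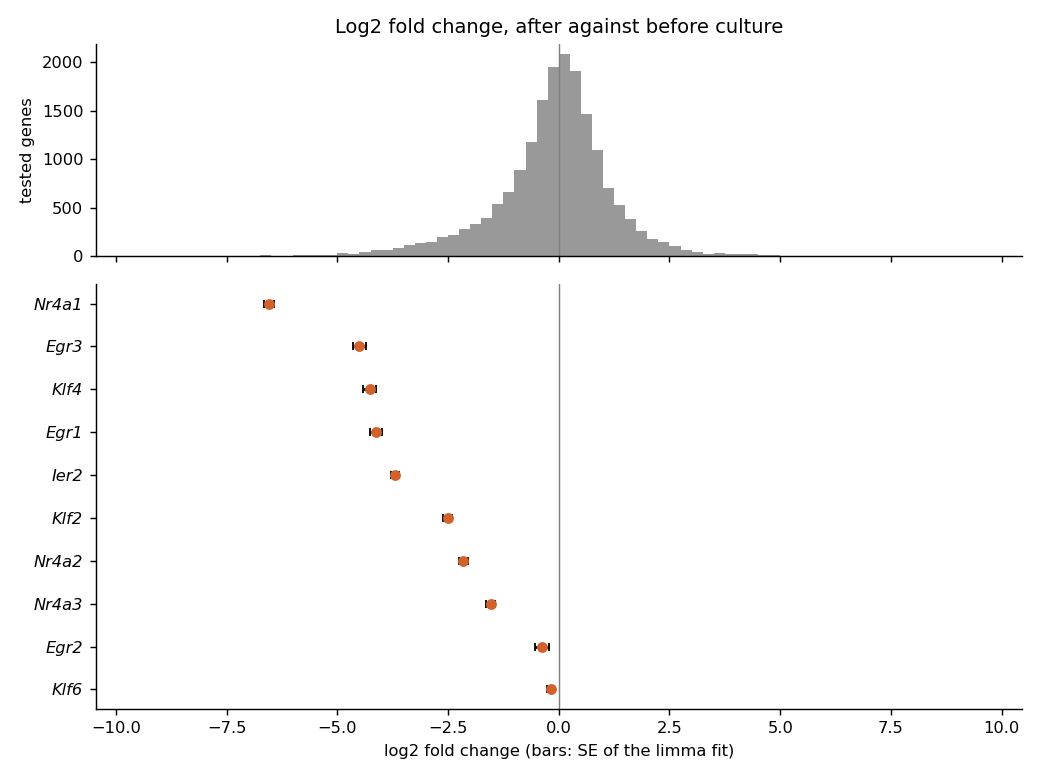
The upper panel is a histogram of the log2 fold change (after against before culture) of the 18202 tested genes, and the lower panel gives the members with the standard error of the limma fit. Nr4a1 lies at −6.55, while Klf6 (−0.19) and Egr2 (−0.38) lie near the centre of the histogram.

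The NR4A genes all fell, by very different amounts. Nr4a1 (Nur77) is the family member known best as an immediate marker of antigen receptor signalling. It lies on chromosome 15 at 101254269 to 101274795 in GRCm38. Its normalized counts in before-culture replicates 1 to 5 were 49734, 45877, 39147, 39473 and 50583. In after-culture replicates 1 to 4 they were 475, 600, 455 and 401. Even the lowest before-culture sample was thus far above the highest after-culture sample. The mean went from 44963 ± 5458 (SD, n = 5) to 483 ± 83.9 (SD, n = 4), so that 1.07% of the initial level was left. The log2 fold change was −6.55 (SE 0.12, limma adjusted p = 2.79e-13), the rank 18 from the lowest among the 18202 tested genes.

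Nr4a2 (Nurr1), a factor also required for dopamine neurons, lies on chromosome 2 at 57106830 to 57124003. Its counts were 15680, 12637, 12259, 14618 and 15986 before and 3509, 2697, 3185 and 3357 after culture. All after-culture samples were lower, with little spread among them. The mean was 4.47-fold lower (14236 ± 1715 against 3187 ± 353, log2 fold change −2.16, SE 0.10, limma adjusted p = 6.88e-10). Nr4a3 (Nor1), which has been linked to the migration of dendritic cells, lies on chromosome 4 at 48045153 to 48086447. Its counts were 43882, 37932, 34939, 38630 and 42647 before and 12761, 12255, 13873 and 15903 after culture. The groups were separate again, but the after-culture samples kept a high level. The mean was 2.89-fold lower (39606 ± 3642 against 13698 ± 1618, log2 fold change −1.53, SE 0.10, limma adjusted p = 1.42e-08).

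The promoters of Nr4a1 and Nr4a2 are shown because Nr4a1 fell most and Nr4a2 much less. They are the 250 bases before a transcript start, 5′ to 3′ on the gene's strand, from RefSeq on GRCm38.p6 (chr15:101266596-101266845, plus strand, and chr2:57124004-57124253, minus strand). The Nr4a1 window lies inside the span of the gene given above, so it precedes an internal start. RefSeq windows matched 7 of the 10 members (Egr1, Egr3 and Ier2 had no match), and these 250-base windows were searched on both strands for 7 motifs. These were the cAMP response element TGACGTCA, its core TGACG (also counted inside the full element), the AP-1 site TGANTCA, the EGR site GCGTGGGCG, the NR4A site AAAGGTCA, and, by name alone, the CArG box bound by serum response factor and the MEF2 site. Capitals mark every match, and CGTCA is the core read on the other strand.
Nr4a1: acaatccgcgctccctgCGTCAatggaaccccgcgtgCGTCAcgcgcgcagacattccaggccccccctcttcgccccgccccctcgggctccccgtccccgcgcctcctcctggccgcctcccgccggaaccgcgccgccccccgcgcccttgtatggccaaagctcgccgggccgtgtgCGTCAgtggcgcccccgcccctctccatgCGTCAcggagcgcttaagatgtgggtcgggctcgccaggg
Nr4a2: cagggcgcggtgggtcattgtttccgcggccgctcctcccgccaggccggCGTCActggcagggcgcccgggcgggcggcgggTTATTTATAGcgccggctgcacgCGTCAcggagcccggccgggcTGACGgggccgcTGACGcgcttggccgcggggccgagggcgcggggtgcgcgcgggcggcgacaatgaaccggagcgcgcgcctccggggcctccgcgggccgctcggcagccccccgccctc
Nr4a1, Nr4a2 and Nr4a3 held 4 TGACG cores each, a motif found in 17.7% of 32817 RefSeq promoter windows of the same length. That share was not matched for GC content, which was 74.4%, 80% and 63.6% in these windows against a median of 52.4% over all windows. In Nr4a1 the core nearest to the start ended 36 bases before it, and in Nr4a2 the nearest ended 107 bases before it. The capitals TTATTTATAG in Nr4a2 are a MEF2 match, which 2.92% of windows held. None of the 3 NR4A windows held the full element (1.55% of windows), the AP-1 site (6.75%), the NR4A site (1.34%), the EGR site (0.536%) or the CArG box (1.47%). A match describes the letters and is not evidence of binding. The Nr4a3 window is not printed, since 152 of its 250 bases lie in GENCODE exons. The part of these motifs in the falls was not tested.

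Within a sample, the family's make-up can be compared without regard to how libraries were scaled. Counts were divided by the length of the longest GENCODE M21 transcript, and each gene was taken as a share of the sum of the family's 3 genes. Nr4a1 made up 58.8 to 63.9% of this sum before and 4.05 to 7.50% after culture. Nr4a3 went from 24.3 ± 0.886% (SD, n = 5) to 68.8 ± 2.52% (SD, n = 4). Nr4a2 went from 14.0 ± 1.06% to 25.7 ± 2.23%. Each of the 3 shares was separate between the groups (two-sided exact permutation, p = 0.0159, which is the minimum for 5 against 4 samples, adjusted p = 0.0159 over 9 shares). Of the summed NR4A signal per kb, the larger part was thus Nr4a1 before culture and Nr4a3 after it. The within-sample log2 ratio of Nr4a1 to Nr4a3 moved by −5.01, from 0.18 ± 0.09 to −4.83 ± 0.40 (SD, exact permutation test, adjusted p = 0.0179 over 9 ratios). For Nr4a2 over Nr4a3 it moved by −0.62 (exact permutation test, adjusted p = 0.0179), so Nr4a2 also fell more than Nr4a3.

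**Figure D3:**
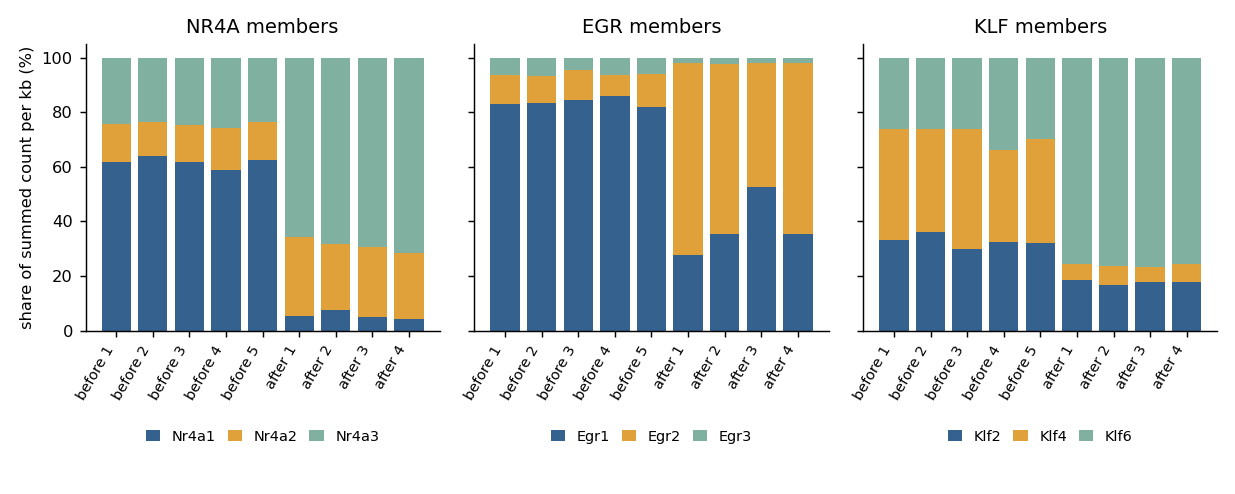
Share of each gene in the summed normalized count per kb of its family's 3 listed genes, in percent, with 1 bar per sample. Nr4a3 and Klf6 take the larger part in all 4 after-culture samples and Egr2 in 3, since Egr1 (52.8%) is ahead of Egr2 (45.4%) in after-culture replicate 3.

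The EGR genes divided sharply. Egr1, an activator that many growth and stress signals induce, had counts of 39611, 39353, 37652, 38760 and 39433 before culture. After culture its counts were 1576, 2491, 2938 and 2138. The before-culture samples lay very close together, with a coefficient of variation of 2.05%, the smallest of the 10 members, whereas it was 25.2% after culture, the largest. The mean was 17.0-fold lower (38962 ± 799 against 2286 ± 575, log2 fold change −4.13, SE 0.14, limma adjusted p = 2.54e-11), and with GC content and transcript length corrected for the log2 fold change was −3.49. Egr3, which limits T cell activation together with Egr2, lies on chromosome 14 at 70077203 to 70082614. Its counts were 2739, 2747, 1830, 2526 and 2604 before and 92.7, 140, 90.1 and 113 after culture. Before-culture replicate 3 was the lowest of its group and still far above every after-culture sample. The mean was 22.8-fold lower (2489 ± 380 against 109 ± 23.2, log2 fold change −4.51, SE 0.15, limma adjusted p = 2.32e-11).

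Egr2 (Krox20), known for roles in myelination, in T cell anergy and in myeloid cells, lies on chromosome 10 at 67535475 to 67542188. Its counts were 3296, 3179, 3149, 2349 and 3741 before and 2646, 2926, 1671 and 2491 after culture. The groups overlapped, since before-culture replicate 4 lay below 3 of the after-culture samples. The mean was 1.29-fold lower (3143 ± 503 against 2433 ± 539, log2 fold change −0.38, SE 0.16, limma adjusted p = 0.0428). This call was lost when before-culture replicate 1, 2, 3 or 5 or after-culture replicate 3 or 4 was left out (adjusted p from 0.0649 to 0.142), with the smallest change, −0.21, without after-culture replicate 3. It was also lost without a filter on low values (0.0517) and when GC content and transcript length were corrected for (−0.13, adjusted p = 0.464).

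The Egr2 promoter is shown as the member with little change whose window holds a CArG box (RefSeq on GRCm38.p6, chr10:67537619-67537868, plus strand, 250 bases before a start, capitals mark matches to the 7 motifs).
Egr2: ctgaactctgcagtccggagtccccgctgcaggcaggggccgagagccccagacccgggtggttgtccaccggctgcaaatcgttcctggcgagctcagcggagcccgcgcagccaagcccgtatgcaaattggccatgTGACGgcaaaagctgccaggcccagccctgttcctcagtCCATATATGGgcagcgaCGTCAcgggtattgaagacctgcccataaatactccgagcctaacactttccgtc
RefSeq lists 5 start windows for Egr2, some overlapping, and 4 of them held a CArG box, a motif in 1.47% of all windows. In the printed window it is CCATATATGG, from 72 to 63 bases before the start. The windows that overlap the printed one hold the same site. No window of the 6 other members with a promoter window held a CArG box. Egr1, Egr3 and Ier2, which all fell far, had no window to search. The comparison thus says nothing of those genes, or of the factor's binding elsewhere.

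Egr1 made up 82.1 to 85.8% of the EGR sum per kb before and 27.7 to 52.8% after culture. Egr2 went from 10.2 ± 1.44% (SD, n = 5) to 60.2 ± 10.6% (SD, n = 4), and Egr3 from 6.07 ± 0.796% to 2.02 ± 0.206%. The groups were separate for each share (exact permutation test, p = 0.0159, adjusted p = 0.0159 over 9 shares). In after-culture replicate 3 Egr1 (52.8%) was still ahead of Egr2 (45.4%), while in the other 3 after-culture samples Egr2 was ahead. The log2 ratio of Egr1 to Egr2 moved by −3.74 and that of Egr2 to Egr3 by 4.12 (exact permutation test, adjusted p = 0.0179 each). For Egr1 over Egr3 it moved by 0.38 with overlapping groups, from 3.98 ± 0.22 to 4.36 ± 0.44 (SD, exact permutation test, adjusted p = 0.127). Leaving out before-culture replicate 3 changed that to 0.47 (adjusted p = 0.0286).

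The KLF genes also split. Klf4, a factor of monocyte and endothelial cells and of pluripotency, lies on chromosome 4 at 55527143 to 55532466. Its counts were 16500, 15624, 21698, 11207 and 15537 before and 746, 864, 767 and 912 after culture. Its spread before culture was the widest of the members (coefficient of variation 23.2%), with replicate 3 high and replicate 4 low. The mean was 19.6-fold lower (16113 ± 3741 against 822 ± 78.9, log2 fold change −4.26, SE 0.14, limma adjusted p = 3.12e-11). Klf2, which maintains quiescence and migration of lymphocytes and is induced by flow in endothelium, lies on chromosome 8 at 72319033 to 72321656. Its counts were 8245, 9171, 8889, 6572 and 8003 before and 1476, 1226, 1560 and 1487 after culture. Replicate 4 was again the lowest before culture, and no sample crossed between the groups. The mean was 5.69-fold lower (8176 ± 1013 against 1437 ± 146, log2 fold change −2.50, SE 0.10, limma adjusted p = 1.73e-10), and −1.80 with GC content and transcript length corrected for.

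Klf6, a widely expressed factor that takes part in inflammatory activation of macrophages, lies on chromosome 13 at 5861482 to 5870394. Its counts were 14852, 15147, 17801, 15771 and 16980 before and 13745, 12976, 15375 and 14514 after culture. After-culture replicate 3 lay above 2 of the before-culture samples. The mean was 16110 ± 1249 before and 14153 ± 1029 after culture, 87.8% of the initial level, and the log2 fold change of −0.19 (SE 0.08) did not pass the threshold (limma adjusted p = 0.0588). It did pass with edgeR (−0.20, adjusted p = 0.0493), DESeq2 (−0.19, 0.0397), TMM scaling (−0.20, 0.0469) or with GC content and transcript length corrected for (−0.43, 4.81e-04). It also passed without before-culture replicate 1 (−0.21, 0.0497) or after-culture replicate 3 (−0.23, 0.0274).

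The KLF promoters are shown because they span the range from a 19.6-fold fall to no call (RefSeq on GRCm38.p6, 250 bases before the start, chr4:55532476-55532725 on the minus strand, chr8:72318812-72319061 and chr13:5861239-5861488 on the plus strand, capitals mark matches to the 7 motifs).
Klf4: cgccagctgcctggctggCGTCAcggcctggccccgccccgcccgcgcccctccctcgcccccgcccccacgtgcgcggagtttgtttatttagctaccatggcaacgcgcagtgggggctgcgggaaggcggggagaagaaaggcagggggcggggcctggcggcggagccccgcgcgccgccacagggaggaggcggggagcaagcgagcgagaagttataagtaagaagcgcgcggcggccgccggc
Klf2: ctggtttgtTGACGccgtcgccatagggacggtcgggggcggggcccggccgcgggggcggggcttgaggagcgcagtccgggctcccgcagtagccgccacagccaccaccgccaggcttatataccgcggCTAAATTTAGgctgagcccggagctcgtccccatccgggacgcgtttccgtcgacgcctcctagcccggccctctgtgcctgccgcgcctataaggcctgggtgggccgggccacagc
Klf6: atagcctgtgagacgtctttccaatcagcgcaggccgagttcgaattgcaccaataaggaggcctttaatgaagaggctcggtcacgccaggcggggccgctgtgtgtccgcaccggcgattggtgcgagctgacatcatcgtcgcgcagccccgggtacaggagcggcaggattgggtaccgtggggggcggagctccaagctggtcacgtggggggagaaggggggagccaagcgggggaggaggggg
Klf4 and Klf2 held 1 TGACG core each, and Klf2 held a MEF2 match, CTAAATTTAG, from 118 to 109 bases before the start. The Klf6 window held none of the 7 motifs. GC content was 74.0% for Klf4, 71.2% for Klf2 and 64.8% for Klf6, against a median of 52.4% over all windows.

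Klf4 went from 38.8 ± 3.91% (SD, n = 5) to 6.20 ± 0.805% (SD, n = 4) of the KLF sum per kb, and Klf2 from 32.7 ± 2.34% to 17.7 ± 0.861%. Klf6 went from 28.4 ± 3.48% to 76.1 ± 0.571%, a share that was nearly the same in all 4 after-culture samples (75.6 to 76.8%). All 3 shares were separate between the groups (exact permutation test, p = 0.0159, adjusted p = 0.0159 over 9 shares). The log2 ratio of Klf2 to Klf4 moved by 1.76, that of Klf2 to Klf6 by −2.32 and that of Klf4 to Klf6 by −4.08 (exact permutation test, adjusted p = 0.0179 each). Each pair of KLF members thus changed by different amounts.

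Ier2, a small nuclear protein of the immediate early class with no zinc finger, lies on chromosome 8 at 84661331 to 84662852. Its counts were 10066, 10423, 9849, 9169 and 10199 before and 828, 894, 678 and 670 after culture. The groups were far apart, with a coefficient of variation of 4.82% before and 14.5% after culture. The mean was 13.0-fold lower (9941 ± 479 against 767 ± 111, log2 fold change −3.70, SE 0.09, limma adjusted p = 3.03e-12), and −3.05 with GC content and transcript length corrected for.

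Levels can be set against each other between genes only per length. On the scale of normalized count per kb, Nr4a1 was highest before culture (17612 ± 2138, SD, n = 5), above Egr1 (8689 ± 178) and Nr4a3 (6924 ± 637) in every sample. Nr4a3 overlapped with Ier2 (6532 ± 315), and Ier2 with Klf4 (5320 ± 1235). In before-culture replicate 3 Klf4 (7163) was above both Ier2 (6471) and Nr4a3 (6108). Klf2 (4427 ± 548), Nr4a2 (3990 ± 481) and Klf6 (3813 ± 296) had lower means, each overlapping with the next, and Klf2 also overlapped with Klf4, although Klf4 was above Klf2 within all 5 samples. Egr2 (1060 ± 170) and Egr3 (632 ± 96.5) were lowest and separate. After culture Klf6 was highest (3350 ± 244, SD, n = 4), followed by Nr4a3 (2395 ± 283), both separate from their neighbours. Nr4a2 (893 ± 98.9), Egr2 (821 ± 182) and Klf2 (778 ± 79.0) overlapped, as did Egr1 (510 ± 128) and Ier2 (504 ± 73.1). Klf4 (271 ± 26.0), Nr4a1 (189 ± 32.9) and Egr3 (27.7 ± 5.89) followed without overlap. Among 17564 tested genes with a transcript length, Nr4a1 went from rank 47 by level per kb to rank 6631. Klf6 stayed close to its place (338 and 322).

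**Figure D4:**
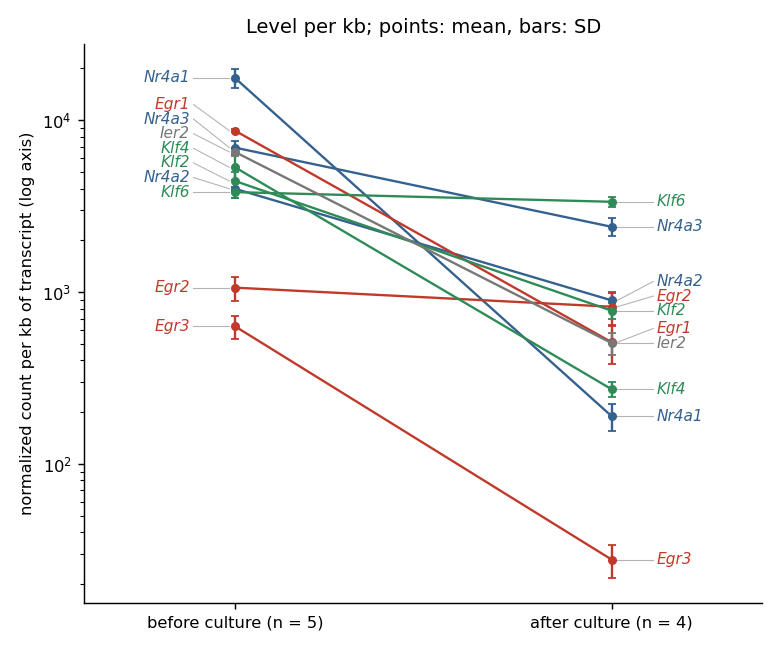
Mean normalized count per kb of transcript on a log axis before (n = 5) and after culture (n = 4), with SD bars and 1 line per gene, blue for NR4A, red for EGR, green for KLF and grey for Ier2. Nr4a1 drops from the top (17612) to the ninth place (189), and the lines of Klf6 and Egr2 are nearly flat.

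Related genes were described by lists chosen with earlier results of these data known. Over all tested genes 34.6% were lower and 34.2% higher. Of the other KLF factors, 10 of 14 were tested, and 9 were lower and 1 higher after culture (median log2 fold change −0.87). Klf11 was 4.31-fold lower (1132 ± 78.8 against 262 ± 25.7, log2 fold change −2.11) and Klf10, a gene induced by TGF-beta, 2.33-fold lower (−1.22). Klf16 was 2.28-fold lower (−1.18). Klf8 was the one that rose, from 337 ± 71.1 to 490 ± 26.6 (log2 fold change 0.56, limma adjusted p = 0.0022). Without a correction for GC content and length, Klf2 and Klf4 therefore had lower log2 fold changes than any of these 10 factors. With that correction Klf2 was at −1.80, and it was not compared with the other factors there. All 3 other IER genes fell, Ier5l by 10.6-fold (−3.36), Ier3 by 2.68-fold (−1.42) and Ier5 by 2.38-fold (−1.24).

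Egr4, the remaining EGR factor, was barely read, with 18.2 ± 6.95 before and 28.7 ± 13.2 in cultured samples (log2 fold change 0.62, limma adjusted p = 0.146). Nab2, a corepressor that binds EGR proteins and is itself induced by them, was 2.70-fold lower (1594 ± 162 against 591 ± 101, −1.44), and Nab1 was 1.54-fold lower (−0.63). Among the 25 upstream factors and kinases, 12 were lower, 6 higher and 7 not called (median −0.14), where 34.6% of all tested genes were lower and 34.2% higher. Nfatc2, a factor activated by calcium, was 3.18-fold lower (−1.66), and Crem, an inducible regulator at cAMP response elements, 2.20-fold lower (−1.13). Nfatc1 was 1.99-fold lower (−0.99). Among the higher genes were Creb1 (2.13-fold, 1.09), Mrtfa (1.51-fold, 0.60), Mef2a (1.31-fold, 0.39), Nfatc3 (1.24-fold, 0.31) and Elk1 (1.24-fold, 0.30). Both tested RXR genes, partners of Nr4a1 and Nr4a2 on DNA, were lower, Rxrb at −0.96 and Rxra at −0.41.

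Of 28 other immediate early genes 22 were lower, 3 higher and 3 not called, with a median log2 fold change of −2.21. Fosb (−8.34), Trib1 (−4.09) and Btg2 (−3.25) had the smallest adjusted p among the lower ones. Of these 28 genes, Fosb alone had a lower log2 fold change than Nr4a1. The 9 genes reported downstream of KLF2, EGR or NR4A proteins in other cells had 4 lower, 2 higher and 3 not called (median −0.08), beside 34.6% lower and 34.2% higher over all tested genes. Nos3 and Thbd, targets of KLF2 in endothelium, were 12.1-fold (−3.51) and 5.60-fold (−2.50) lower, and Ndrg1 was 2.86-fold lower (−1.54). S1pr1, a target of KLF2 in lymphocytes, had a log2 fold change of −0.08, which did not pass the threshold (limma adjusted p = 0.538). Cblb, an EGR target in anergic T cells, was 2.91-fold higher (1.54), and Ccr7, the chemokine receptor that leads dendritic cells to lymph nodes, 6.69-fold higher (2.74).

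**Figure D5:**
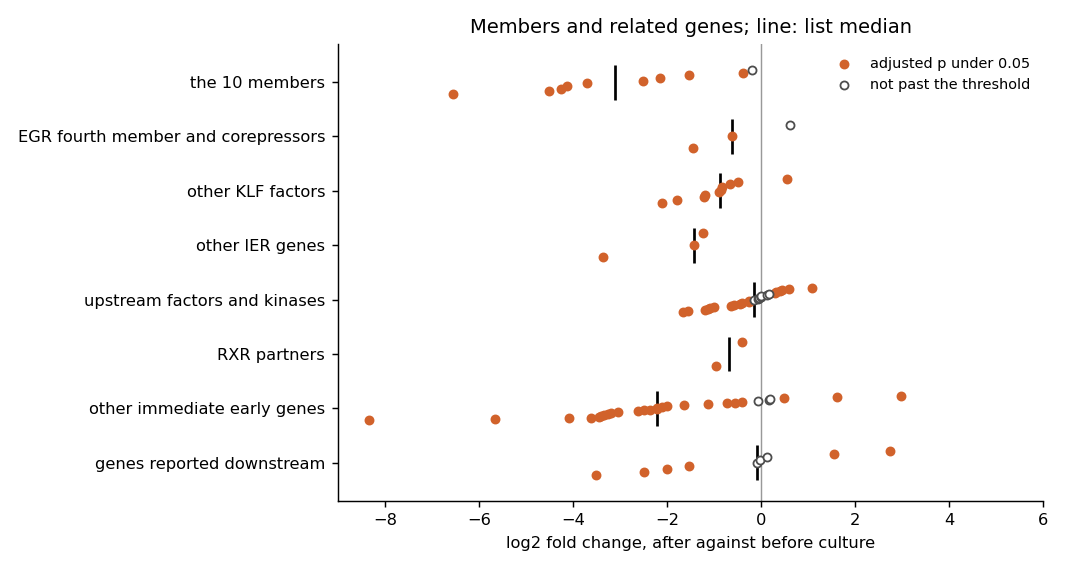
Log2 fold change (after against before culture) of the 10 members and of the tested genes on 7 related lists, filled where the adjusted p is under 0.05, with a line at the list median. The members' median is −3.10 and that of the other immediate early genes −2.21, while the upstream factors and the genes reported downstream centre near 0.

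Markers of other cell types were read in these samples, and several lists were mostly lower after culture. For comparison, 34.6% of all tested genes were called lower and 34.2% higher, and some lists below lie near these shares. All 12 endothelial markers were lower after culture (median log2 fold change −3.30), and their summed count ran from 31710 to 45627 before and from 5507 to 6911 after. Klf2, Klf4, Nos3 and Thbd are also endothelial genes. Klf4 fell by more than that median and Klf2 by less. All 6 tested neutrophil markers were lower (median −4.75, sums of 12721 to 21985 against 813 to 1687), and Ly6g was at 0 in all after-culture samples. All 6 fibroblast markers (median −2.21, 15611 to 28377 against 2206 to 4422) and all 6 epithelial markers (median −2.39, 23646 to 39788 against 4128 to 7974) were lower, as were 5 of 6 NK cell markers (median −2.24, 1915 to 3628 against 704 to 1275). Monocyte and macrophage markers had 5 of 10 lower and none higher (median −1.08, 42011 to 78760 against 20351 to 47155). The alveolar macrophage list had 4 of 6 lower and 1 higher (median −1.07, 16636 to 24560 against 8081 to 11179). For type 2 conventional dendritic cells 3 of 5 were lower and 1 higher (median −2.31, 16545 to 23716 against 15007 to 28040), and for plasmacytoid dendritic cells 2 of 4 were lower (median −0.74, 3707 to 4394 against 1751 to 2107). Single genes carried most of some sums, such as Chil3 for alveolar macrophages (mean 17158 before and 7818 after) and Sirpa for type 2 cells (14134 and 18100). T cell markers (2 of 7 lower, 1 higher, median −0.03, 5384 to 6375 against 4988 to 6589) and B cell markers (1 of 5 lower, 1 higher, median 0.022, 2390 to 4460 against 2435 to 3350) had overlapping sums. The part of these cell types in the members' changes was not tested.

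With both groups pooled, the members did not vary as a block around their group means. Over the 45 pairs of members, the correlation of deviations from the group mean of log2 values (9 samples, all genes sharing the libraries) had a median of 0.0011, and 23 of the pairs were positive. Nr4a1 and Ier2 had the highest value (0.79) and Egr3 and Klf6 the lowest (−0.77). Nr4a2 and Nr4a3 stood at 0.71 and Klf2 and Klf4 at 0.55. Some before-culture samples did shift for most members. Replicate 1 was above its group mean for 9 of the 10 members, replicate 5 for 8 and replicate 4 for 2, while replicates 2 and 3 stood at 6 and 4. The after-culture samples ranged from 4 to 7. These differences between replicates were small beside those between the groups for the 8 members that did not overlap.

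For each member the 3 most similar genes were taken by Pearson correlation of log2(value + 1) over the 9 samples, among 11776 other genes with a mean of at least 100. The 9 points share the culture contrast, so high values are common. Nr4a1 was closest to Per1, a clock gene that is also rapidly induced (r = 0.999), Dbn1 and Ncaph. Klf4 was closest to Vwf, the endothelial von Willebrand factor gene, which went from 9468 ± 1427 to 1282 ± 174 (r = 0.998), and then to Ackr3 and Nfatc1. Klf2 came nearest to Kcna3, Ppp1r15a and Ntn1. Nr4a2 was nearest to Hps5, Plekha5 and Rasd1, and Nr4a3 to Ciita, the class II transactivator (r = 0.997), Tsc22d2 and Rassf5. Egr1 was nearest to Rtl8c, Gramd2a and Cd244a, Egr3 to Hmgb2, Wdfy4 and Ncaph, and Ier2 to Igfbp5, Slamf9 and Dbn1. Egr2 had its highest r with Hsp90ab1 (0.972), Slc3a2 and B4galt5. Klf6 had the lowest maximum of the members, 0.931 with Smad4, followed by Nufip2 and Wnt11.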

How the data were processed

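Expression was measured by RNA sequencing in 9 samples, matched to table columns by library name. The deposited values are a signal: gene counts that the authors divided by 1 size factor per sample. Per the submitters' processing notes, DESeq2 and GRCm38 were used. The aligner, counting tool, strand setting and annotation are not given in the sources used here. All values (100%, within 1e-06) were whole multiples of 1 read's worth, so whole reads were recovered. The 3782 of 49317 rows without a symbol were left out (9.11 ± 1.64% of reads before and 4.57 ± 0.663% after culture, SD).

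Rows whose mean over the samples reached 10 were fitted with limma 3.58.1 in R 4.3.3 on log2(value + 1), with group as the only term, a mean-variance trend and two-sided tests. Fold changes on that scale understate low genes. A fold printed as "N-fold" is the ratio of group means. Family shares and ratios were compared by exact two-sided permutation in SciPy 1.17.1, with the samples taken as unpaired. No paired version was run, so these p-values do not hold if the samples are paired. Members and lists were chosen with earlier results of these data known. Named list genes are the 3 smallest adjusted p in each direction and any against the list median, and some list genes are not reported here. Lengths and coordinates are from GENCODE M21 (GRCm38), which may not be the authors' annotation. At most 0.268% of a member's 50-base windows occurred in other genes. Alternatives included other pseudocounts, filters and scalings, edgeR 4.0.16 and DESeq2 1.42.0 on recovered reads, a replicate block, a GC content and length correction, and leaving out each sample. On simulated counts with 200 changed genes, limma recovered 100 of 100 changed 8-fold at both dispersions tried. Of 100 changed 2-fold it recovered 94 at a dispersion of 0.02 (18181 tested, 2.02% of calls false) and 28 at 0.1 (18186 tested, 4.48% false). Far fewer genes changed in the simulation than the 68.8% called here, so these shares may not hold for these data.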

Additional observations from a re-analysis of the deposited data

Results flagged for a closer look

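Egr3 in before-culture replicate 3 had a normalized count of 1830, the lowest of its group. Its gap to the next sample was 0.759 of the group's range. This was the only 1 of 20 groups of values (10 members in each of the before-culture and after-culture samples) with a sample that far from the others, and chance gives about 1 in 20.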

How the results depend on the processing

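The 8 members with separate groups kept their direction and call in all 176 alternative values, although the GC content and length correction made the falls of Klf2 (−1.80), Ier2 (−3.05) and Egr1 (−3.49) smaller by over 1.5-fold. The 9 family shares kept both in all 90, which covered leaving out each sample and no division by length. Shares and ratios were not recomputed with the GC content and length correction or a replicate block. The number of members called lower was 8 to 10. Egr2 was no longer called without a filter (−0.38), with the title number as replicate block (−0.32), with the correction for GC content and length (−0.13) or with both (−0.056), and ran from −0.48 to −0.21 when a sample was left out. Klf6 passed with TMM scaling (−0.20), edgeR (−0.20), DESeq2 (−0.19), the library number as replicate block (−0.21), the GC content and length correction (−0.43) or that with the title block (−0.39), and ran from −0.23 to −0.15 when a sample was left out. The Egr1 over Egr3 ratio ran from 0.16 to 0.48 when a sample was left out or the pseudocount was changed. The cause was not tested. The GC content and length correction moved the median of all genes to 0.13. The labels do not say whether replicate numbers pair the samples. Deviations of same-numbered samples correlated at −0.21 to 0.081 by title and 0.045 to 0.35 by library name, so not every pair was over 0.1 and no pairing was used. The blocks called 5885 lower and 5761 higher genes (title) and 6446 and 6390 (library name), against 6299 and 6225 without. As a hint from the data and not the design, all 4 after-culture libraries correlated best with the before-culture library of their own number, whereas before-culture replicate 5 did not. With the library block Egr2 was at −0.38 (limma adjusted p = 0.00136).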

Other observations

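Against the direction of most immediate early genes, 3 of the 28 were higher after culture. Arc, a synaptic regulator gene that migratory dendritic cells also express, went from 558 ± 36.5 to 4388 ± 349 (SD, n = 5 and n = 4, log2 fold change 2.97, SE 0.08, limma adjusted p = 4.56e-12). Ccn2, the connective tissue growth factor gene, went from 457 ± 152 to 1362 ± 256 (1.61), and Fosl1, an AP-1 subunit, from 505 ± 79.1 to 706 ± 93.4 (0.49). Dusp5 (0.16, limma adjusted p = 0.0726), Rgs1 (0.19, 0.172) and Sgk1 (−0.07, 0.453) did not pass the threshold, as with Klf6. All 4 after-culture values of Arc lay above all 5 before-culture values, which held for 28.7% of tested genes.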
